A study of Mus musculus with 12 samples.

Results

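The HSP70 family of mouse chaperones was followed here through regulatory and conventional T cells of mice that had received a stapled peptide modelled on FOXP3. Its 10 members were the genes Hspa1a, Hspa1b, Hspa1l, Hspa2, Hspa4, Hspa5, Hspa8, Hspa9, Hspa13 and Hspa14, taken by exact symbol, and all 10 were listed in the tables of both cell types, out of 10507 symbols listed in either table. They were split by name into 3 inducible genes (Hspa1a, Hspa1b and Hspa1l) and 7 other paralogs. The members were selected on the CPM of SAH and vehicle libraries, that is, with the response to the peptide in these libraries already known, so their values in peptide-treated against vehicle-treated cells are a description and carry no test. None of the members shared its values with another symbol, and the filter on low values removed no gene.

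SAH-FOXP3(229-259)C is a stapled alpha-helical peptide, in which a chemical link across a helix holds its shape. FOXP3 is the transcription factor that defines regulatory T cells. Mice of the strain B6.Cg-Foxp3tm2Tch/J, in which the Foxp3 locus also expresses green fluorescent protein, had an intraperitoneal injection of 25 mg/kg SAH or of vehicle on each of 2 days. Vehicle libraries are titled DMSO. All mice carried the reporter, so every group shares that allele. Regulatory T cells (Treg) were CD4+CD25+FOXP3+ cells and conventional T cells (Tcon) were naive CD4+ cells. Each cell type had 2 SAH libraries and 1 vehicle library from spleen, and 2 SAH libraries and 1 vehicle library from lymph node, which makes 12 libraries of stranded mRNA sequencing. Replicate numbers used below are the library numbers of the titles, 1 for lymph node vehicle, 2 and 3 for lymph node SAH, 4 for spleen vehicle, and 5 and 6 for spleen SAH. The labels do not say whether libraries came from separate mice or from pooled mice, and the p-values given below therefore speak of variation among libraries, part or all of which may be technical. With 1 vehicle library per organ and cell type, each vehicle value stands without a replicate of its own.

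Chaperones of the HSP70 family bind stretches of unfolded protein and release them in a cycle driven by ATP. J-domain proteins bring substrates and stimulate ATP hydrolysis, and nucleotide exchange factors reset the cycle. Some members are made at all times, in the cytosol, the endoplasmic reticulum or the mitochondria, while Hspa1a and Hspa1b are transcribed strongly when heat shock factor 1 (HSF1) binds heat shock elements in their promoters. In T cells, inducible HSP70 is known to rise with heat, fever-range temperatures and activation.

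The 3 inducible genes lie together on chromosome 17 (mm10). Hspa1b, with 1 exon, spans chr17:34956436-34959238 on the minus strand. Hspa1a, with 1 exon, spans chr17:34969190-34972156 on the minus strand, 9951 bases away. Hspa1l, with 2 exons, spans chr17:34972703-34979285 on the plus strand, so that it and Hspa1a point away from each other across a gap of 546 bases. The promoters of these genes are shown because HSF1 is known to act on those of Hspa1a and Hspa1b, and the promoter of Hspa5 because a different stress element is known there. The sequences are the 250 bases before the RefSeq gene start (GRCm38.p6), 5′ to 3′ on the strand of the gene. Capitals mark a pair of heat shock units, written GAANNTTC, in Hspa1a and Hspa1b, and the endoplasmic reticulum stress element in Hspa5.
Hspa1a, chr17:34972157-34972406, minus strand: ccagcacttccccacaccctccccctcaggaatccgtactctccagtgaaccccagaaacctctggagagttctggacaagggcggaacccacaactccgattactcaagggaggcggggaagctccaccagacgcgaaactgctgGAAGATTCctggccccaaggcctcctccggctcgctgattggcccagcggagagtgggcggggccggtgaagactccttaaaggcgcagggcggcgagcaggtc
Hspa1b, chr17:34959239-34959488, minus strand: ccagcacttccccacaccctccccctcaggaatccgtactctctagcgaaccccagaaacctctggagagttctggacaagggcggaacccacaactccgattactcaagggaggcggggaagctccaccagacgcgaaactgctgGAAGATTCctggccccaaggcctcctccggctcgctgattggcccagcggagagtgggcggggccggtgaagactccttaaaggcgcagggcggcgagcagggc
Hspa1l, chr17:34972453-34972702, plus strand: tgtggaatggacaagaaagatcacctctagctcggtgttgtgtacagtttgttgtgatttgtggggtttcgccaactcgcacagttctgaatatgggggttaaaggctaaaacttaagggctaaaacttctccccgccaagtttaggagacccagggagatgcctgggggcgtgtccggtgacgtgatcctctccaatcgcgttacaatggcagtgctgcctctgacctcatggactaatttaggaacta
Hspa5, chr2:34771840-34772089, plus strand: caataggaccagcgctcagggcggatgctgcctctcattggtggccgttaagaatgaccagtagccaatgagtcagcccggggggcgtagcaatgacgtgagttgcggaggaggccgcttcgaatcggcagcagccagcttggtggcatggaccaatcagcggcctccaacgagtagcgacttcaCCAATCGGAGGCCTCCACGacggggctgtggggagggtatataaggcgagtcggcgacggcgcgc

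The windows of Hspa1a and Hspa1b were 98.8% identical, with 247 of 250 bases in common. Counted from 1 at the 5′ end of the window, with the base of Hspa1a first and that of Hspa1b last, they differed by C44T, T47C and T249G. Both hold GAANNTTC at -104 to -97 from the start. That motif, searched on both strands, was present in 6.69% of the 32851 RefSeq mouse promoters of the same length. The other phase of the pair, TTCNNGAA, which 7.17% of promoters hold, and the run of 3 units GAANNTTCNNGAA, which 0.466% hold, were in none of the 7 members with a RefSeq entry (Hspa1a, Hspa1b, Hspa1l, Hspa2, Hspa4, Hspa5 and Hspa14). Hspa1l held no pair of either phase in its window, nor did Hspa2, Hspa4, Hspa5 or Hspa14. The GAANNTTC of Hspa1a does lie in the gap of 546 bases between Hspa1a and Hspa1l, outside the window of Hspa1l. Hspa5 held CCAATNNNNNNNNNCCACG at -65 to -47, a motif of 0.113% of promoters, whose first 5 bases are also a CCAAT box, a motif of 33.8% of promoters. These matches describe letters in a window and are not evidence of binding in these cells.

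Sequence also limits how far the inducible genes can be told apart by short reads. The coding sequences of Hspa1a (1923 bases) and Hspa1b (1926 bases) had 1915 identical bases, or 99.4% of the longer. A run of 638 bases is shared between them without a mismatch, and 82.4% of the 50-base words of Hspa1a also occur in Hspa1b. Hspa1l was 83.2% identical to Hspa1a, yet the pair share an unbroken run of 233 bases, and 12.4% of the 50-base words of Hspa1a occur in Hspa1l. No 50-base word of the 3 inducible genes occurs in the coding sequence of any of the other 7 members. How the authors assigned reads that fit several genes is not given in the sources used here, so the division of reads among Hspa1a, Hspa1b and Hspa1l is uncertain.

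The other members lie apart from this cluster and from each other. Hspa8 spans chr9:40800984-40810087 on the plus strand, with 9 exons and 3 small nucleolar RNA genes of the same strand within it. Hspa5 spans chr2:34771970-34777547 on the plus strand with 9 exons, and Hspa2 chr12:76404176-76406938 on the plus strand with 2. Hspa9 spans chr18:34937414-34954357 on the minus strand with 17 exons and 2 small nucleolar RNA genes within it. Hspa13 spans chr16:75745431-75767104 on the minus strand with 10 exons and holds a pseudogene of the same strand, Gm15553. Hspa4 spans chr11:53259814-53300457 with 19 exons and Hspa14 chr2:3488850-3512814 with 14, both on the minus strand. Hspa14 shares its strand and place with the annotated gene Gm45902. On the opposite strand, Gm20481 overlaps Hspa1a, Gm10501 overlaps Hspa1l and Gm22923 overlaps Hspa13. Since the strand setting of the counting is not known here, reads from overlapping genes cannot be told apart from those of the member.

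Reads in listed genes ranged between 36442420 and 48888678 per library, so that 1 read was worth at most 0.0267 CPM, the read count scaled to library size. The lowest Pearson r between libraries was 0.985 in Treg and 0.987 in Tcon, across genes. Foxp3 was at 655 to 726 CPM in Treg libraries and 19.6 to 24.9 CPM in Tcon libraries. Cd4 and Cd3e were at 324 CPM or more in every library, while Cd8a and Hba-a1 were not listed in either table. In these bulk samples, a change in the share of cells that express a gene and a change in RNA per cell cannot be told apart.

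The inducible genes were the members with the highest values in SAH libraries relative to vehicle, in each organ and cell type. Hspa1a encodes the stress-inducible cytosolic HSP70. In Treg it stood at 233 and 229 CPM in the 2 spleen SAH libraries, against 62.1 CPM in spleen vehicle, and at 78.6 and 63.4 CPM in the 2 lymph node SAH libraries, against 21.5 CPM in lymph node vehicle. All 4 SAH libraries lay above both vehicle libraries, although the lower lymph node SAH value was within a few percent of the spleen vehicle value. In Tcon, Hspa1a was at 267 and 306 CPM with SAH in spleen, against 40.2 CPM with vehicle, and at 86.1 and 165 CPM with SAH in lymph node, against 29.3 CPM with vehicle. The SAH mean was 3.72-fold the vehicle value in Treg of spleen, 3.31-fold in Treg of lymph node, 7.14-fold in Tcon of spleen and 4.29-fold in Tcon of lymph node. The 2 lymph node SAH libraries of Tcon differed 1.91-fold from each other, the widest gap between paired libraries of any member.

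Hspa1b encodes a protein almost the same as that of Hspa1a. In Treg it measured 287 and 280 CPM with SAH in spleen, against 79.8 CPM with vehicle, and 94.5 and 80.4 CPM with SAH in lymph node, against 26.6 CPM with vehicle. In Tcon it measured 327 and 369 CPM with SAH in spleen, against 49.95 CPM with vehicle, and 112 and 200 CPM with SAH in lymph node, against 37.5 CPM with vehicle. Its SAH libraries again lay above every vehicle library of the cell type. In Treg the margin was narrow, with 80.4 CPM in a lymph node SAH library beside 79.8 CPM in spleen vehicle. The mean of each SAH pair was 3.55-fold its vehicle in Treg of spleen and 3.28-fold in Treg of lymph node. In Tcon it was 6.97-fold in spleen and 4.16-fold in lymph node. The ratio of Hspa1b to Hspa1a stayed between 1.20 and 1.30 in all 12 libraries. With 82.4% of 50-base words of the Hspa1a coding sequence shared, like transcription of the 2 genes and a division of reads between them cannot be told apart from these values.

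Hspa1l, an HSP70 gene known mainly from testis, was far lower. In Treg it was at 26.3 and 26.6 CPM with SAH in spleen, against 7.95 CPM with vehicle, and at 9.66 and 8.16 CPM with SAH in lymph node, against 2.32 CPM with vehicle. In Tcon it was at 30.8 and 36.1 CPM with SAH in spleen, against 5.60 CPM with vehicle, and at 11.8 and 20.4 CPM with SAH in lymph node, against 5.09 CPM with vehicle. As for Hspa1a, the SAH and vehicle libraries of a cell type did not overlap. In Treg the margin was again narrow, with 8.16 CPM in a lymph node SAH library beside 7.95 CPM in spleen vehicle. Hspa1l amounted to 10.8% to 17.4% of the Hspa1a value in every library, beside the 12.4% of 50-base words of coding sequence that it shares with Hspa1a. Whether any of its counts came from Hspa1a reads was not tested.

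**Figure D1:**
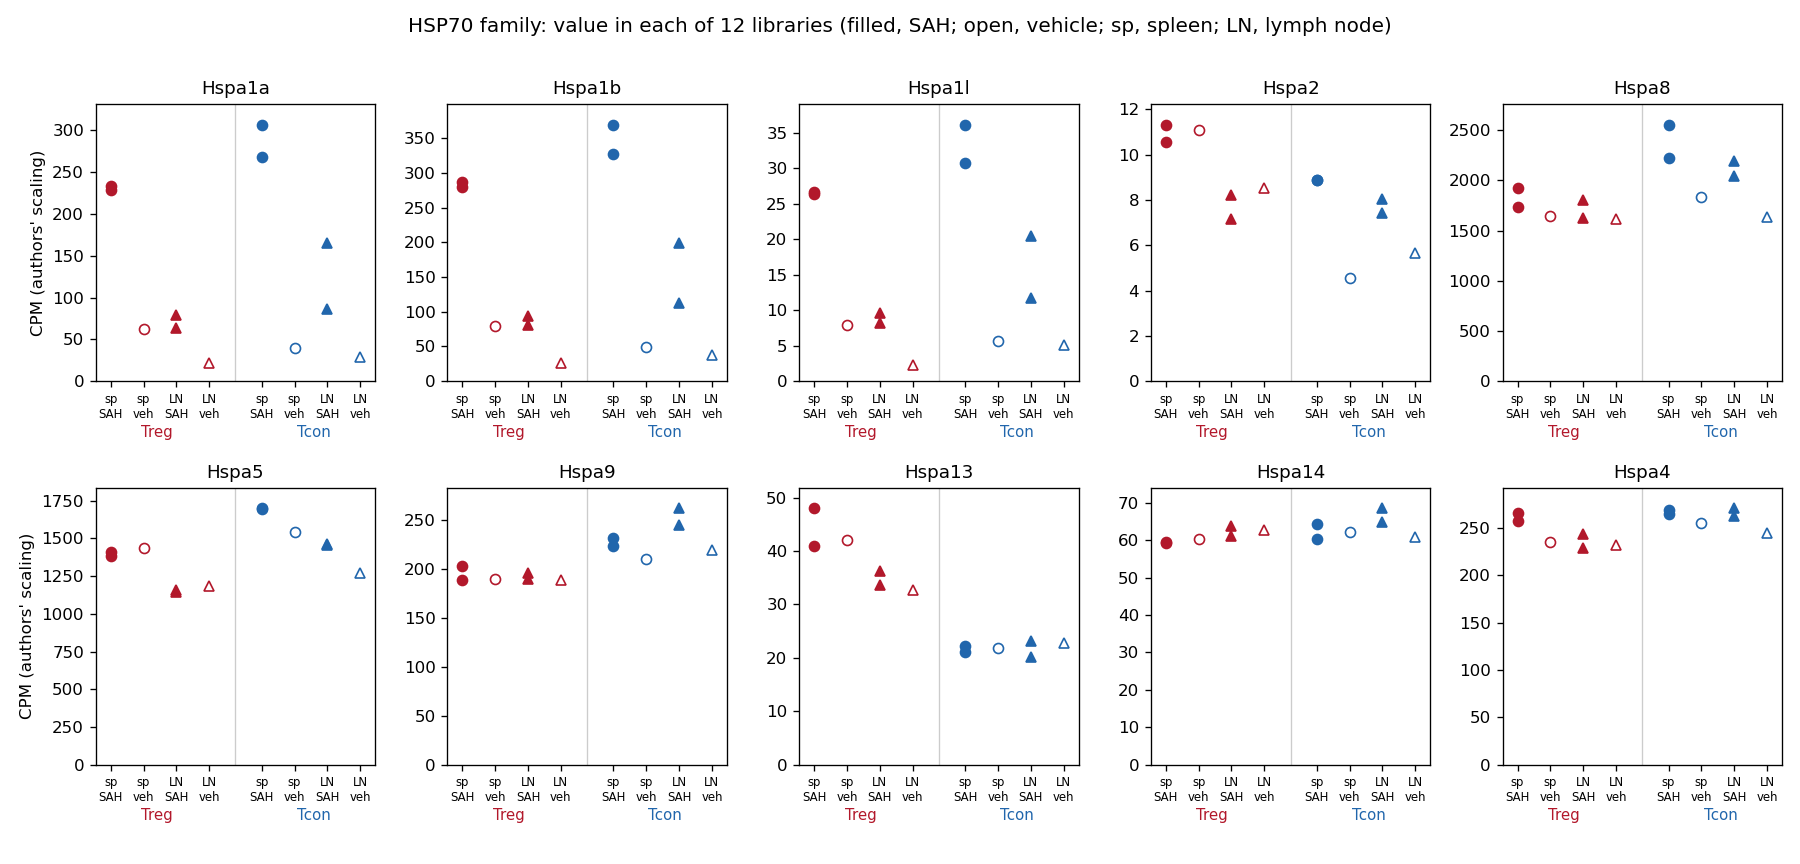
CPM of each of the 10 HSP70 family members (one panel each, y axis from 0) in the 12 libraries, with Treg in red on the left and Tcon in blue on the right of each panel; filled points are SAH libraries, open points vehicle, circles spleen and triangles lymph node. Hspa1a in Treg of spleen stands at 233 and 229 CPM with SAH and 62.1 CPM with vehicle, while Hspa14 stays between 59.3 and 68.5 CPM in all 12 libraries.

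Among the cytosolic paralogs, Hspa8 encodes the constitutive HSP70 that folds new proteins and strips clathrin from vesicles. It was the most abundant member. In Treg it measured 1735 and 1922 CPM with SAH in spleen, against 1645 CPM with vehicle, and 1624 and 1800 CPM with SAH in lymph node, against 1611 CPM with vehicle. In Tcon it measured 2227 and 2553 CPM with SAH in spleen, against 1838 CPM with vehicle, and 2046 and 2189 CPM with SAH in lymph node, against 1638 CPM with vehicle. Tcon SAH libraries lay above both Tcon vehicle libraries, 1.30-fold in spleen and 1.29-fold in lymph node. In Treg the SAH libraries of lymph node and the vehicle library of spleen overlapped, and the means were 1.11-fold and 1.06-fold their vehicle in spleen and lymph node.

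Hspa2, known in mouse for its need in male meiosis, had the lowest mean per length of the 10 members in each cell type, although Hspa1l was lower per length in both Treg vehicle libraries and in Tcon vehicle of lymph node. In Treg it was at 11.3 and 10.6 CPM with SAH in spleen, against 11.1 CPM with vehicle, and at 8.21 and 7.16 CPM with SAH in lymph node, against 8.53 CPM with vehicle. In Tcon it was at 8.87 and 8.86 CPM with SAH in spleen, against 4.56 CPM with vehicle, and at 7.42 and 8.04 CPM with SAH in lymph node, against 5.65 CPM with vehicle. Tcon SAH libraries were thus all above Tcon vehicle, 1.94-fold in spleen and 1.37-fold in lymph node, and Treg SAH libraries were at 0.987 and 0.901 of their vehicle. Hspa4, an HSP110-type relative that acts as a nucleotide exchange factor, kept within 229 to 265 CPM in SAH libraries and 232 to 236 CPM in vehicle libraries of Treg. Its Tcon values were 263 to 271 CPM with SAH and 245 and 255 CPM with vehicle.

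In the endoplasmic reticulum, Hspa5 encodes the luminal HSP70, BiP, a target of the unfolded protein response. It stood at 1412 and 1381 CPM with SAH in Treg of spleen, against 1438 CPM with vehicle, and at 1159 and 1144 CPM with SAH in Treg of lymph node, against 1184 CPM with vehicle. All 4 Treg SAH libraries were therefore slightly under the vehicle library of their organ, as for 11.7% of all genes. In Tcon, Hspa5 was at 1693 and 1700 CPM with SAH in spleen, against 1540 CPM with vehicle, and at 1461 and 1454 CPM with SAH in lymph node, against 1272 CPM with vehicle. All 4 Tcon SAH libraries were above the vehicle library of their organ, as for 16.6% of all genes, by 1.10-fold in spleen and 1.15-fold in lymph node. Hspa13, a microsomal member without the usual substrate-binding domain, was at 40.9 to 48.0 CPM with SAH in Treg of spleen, against 42.1 CPM with vehicle, and at 33.7 and 36.4 CPM with SAH in Treg of lymph node, against 32.8 CPM with vehicle. In Tcon it stayed between 20.2 and 23.2 CPM across all 6 libraries.

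Hspa9 encodes the mitochondrial HSP70 that draws proteins through the inner membrane. In Treg it ranged between 189 and 204 CPM with SAH, against 189 and 190 CPM with vehicle. In Tcon it ranged between 224 and 262 CPM with SAH, against 210 and 220 CPM with vehicle, and SAH libraries lay above vehicle. Hspa14, which pairs with the J-domain protein Dnajc2 at the ribosome, kept within 59.3 to 63.7 CPM in Treg and 60.3 to 68.5 CPM in Tcon over both treatments.

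**Figure D2:**
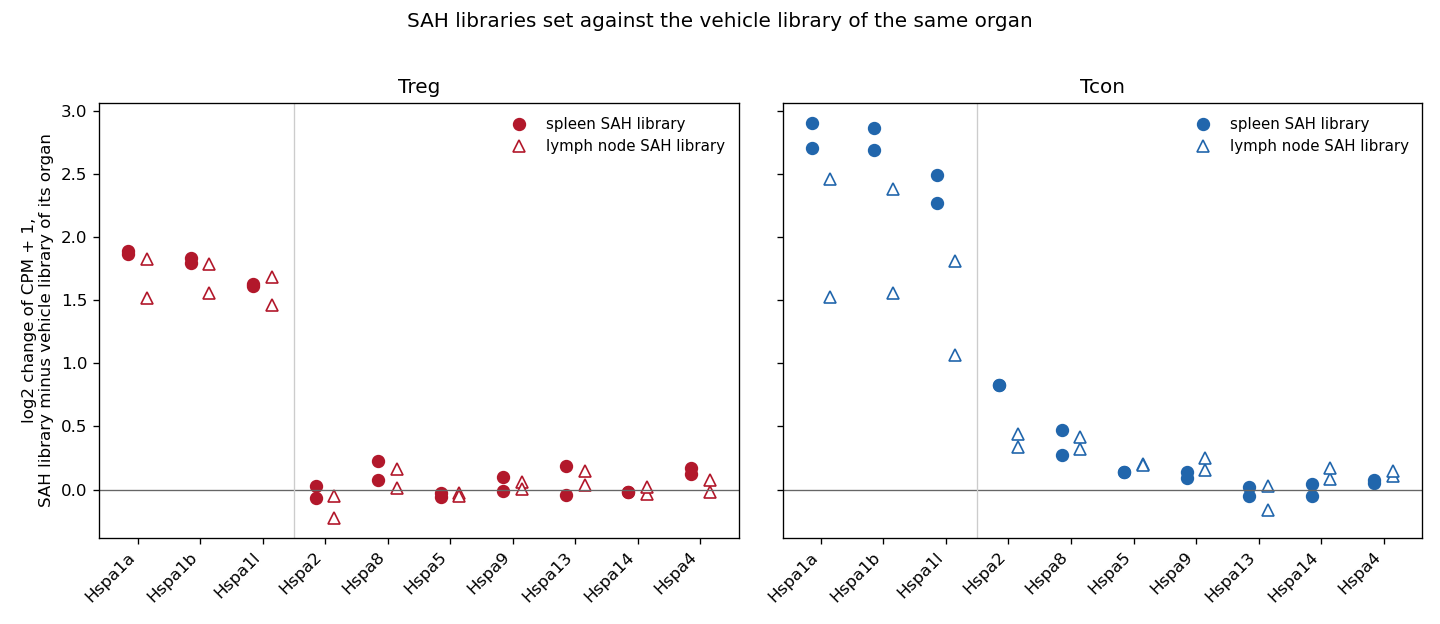
The log2 change of CPM + 1 in each SAH library relative to the vehicle library of its organ (y axis), for the 10 members (x axis), in Treg (left) and Tcon (right); filled circles are spleen and open triangles lymph node, and a thin line parts the inducible genes from the others. The inducible genes lie between 1.46 and 1.89 in Treg and between 1.07 and 2.90 in Tcon, while the others lie at or under 0.22 in Treg and 0.83 in Tcon.

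Across all genes, limma with Benjamini-Hochberg adjustment (adjusted p below 0.05, organ as a term) called 0.202% of 10405 genes in Treg and 1.04% of 9886 genes in Tcon between SAH and vehicle, with 0.135% higher and 0.0673% lower in Treg and 0.88% higher and 0.162% lower in Tcon. Among members, 3 were called in Treg, namely Hspa1a, Hspa1b and Hspa1l, and 5 in Tcon, the same with Hspa2 and Hspa8. All members that were called were higher with SAH, and since these values chose the members nothing further is read from the count. On the log2(CPM + 1) scale, the median change of the inducible genes was 1.74 in Treg and 2.37 in Tcon, and that of the other 7 paralogs was 0.04 in Treg and 0.16 in Tcon. The median over all genes was 0.00 in both cell types. The authors' deposited table, made from the same libraries, called 3 members in Treg and 5 in Tcon. Of all genes it called 38 higher and 11 lower of 10405 in Treg, and 215 higher and 102 lower of 9886 in Tcon. Its log2 fold for Hspa1a was 1.81 in Treg and 2.45 in Tcon. In place of 5, the calls in Tcon numbered 2, Hspa1a and Hspa1b, without lymph node SAH replicate 3, without spleen vehicle replicate 4 or without the intensity trend in the variance, and to 3 without spleen SAH replicate 6.

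Counted by overlap alone, the lowest SAH library was above the highest vehicle library for 3 of 10 members in Treg, where 5.01% of all genes had that order, and for 7 of 10 in Tcon, where 10% did. The 3 in Treg, Hspa1a, Hspa1b and Hspa1l, were separated narrowly, between the lower lymph node SAH library and spleen vehicle. The 7 in Tcon were Hspa1a, Hspa1b, Hspa1l, Hspa2, Hspa4, Hspa8 and Hspa9. No member had every SAH library below every vehicle library in either cell type, an order found in 4.99% of genes in Treg and 9.53% in Tcon. These orders use the same values that chose the members.

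To compare levels between genes, CPM was divided by the length in kilobases of the longest annotated transcript. In Treg, Hspa8 led with 546 ± 38.6 CPM per kilobase and Hspa5 followed with 350 ± 37.4 (SD over the 6 libraries of both organs and treatments). The ranges of these 2 genes did not overlap. Hspa9 (63.3 ± 2.00) and Hspa4 (52.8 ± 3.16) did not overlap each other. Hspa1b (50.4 ± 40.1) and Hspa1a (38.6 ± 31.0) ranged across Hspa9, Hspa4 and Hspa14 (34.0 ± 0.97), so these 5 could not be put in 1 order over all libraries. In the 2 spleen SAH libraries of Treg, Hspa1b (102 and 99.8) and Hspa1a (78.6 and 77.0) stood above Hspa9, whose highest Treg value was 66.8. At the low end, Hspa13 (9.20 ± 1.37), Hspa1l (5.46 ± 4.19) and Hspa2 (3.75 ± 0.69) had neighbours that overlapped. In Tcon the means over both treatments were led by Hspa8 at 659 ± 101, Hspa5 at 414 ± 44.2 and Hspa9 at 76.2 ± 6.18 CPM per kilobase. With SAH in spleen, Hspa1b (117 and 132) and Hspa1a (90.2 and 103) were above Hspa9 (75.9 and 73.5) there too. Over all Tcon libraries Hspa1b (65.1 ± 50.3) stood above Hspa4 (56.6 ± 2.13) and Hspa1l (7.40 ± 5.29) above Hspa13 (5.16 ± 0.27), with overlapping ranges in each case. The tables of Treg and Tcon were scaled separately, so their levels are set side by side without a test.

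The share of the inducible genes in the summed CPM per kilobase of the family sets the 3 genes so named against the other 7 paralogs. In spleen SAH libraries it was 14.7% and 14.0% in Treg, against 4.67% in spleen vehicle. Lymph node SAH libraries of Treg had 6.09% and 4.87%, against 1.75% with vehicle. In Tcon the share was 14.0% and 14.7% in spleen SAH, against 2.80% with vehicle, and 5.67% and 9.54% in lymph node SAH, against 2.39% with vehicle. The 4 spleen SAH libraries thus had much the same share in Treg and Tcon, and the lowest share was that of Treg from vehicle-treated lymph node. The other 7 paralogs still made up most of the summed CPM per kilobase of the family in every library.

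**Figure D3:**
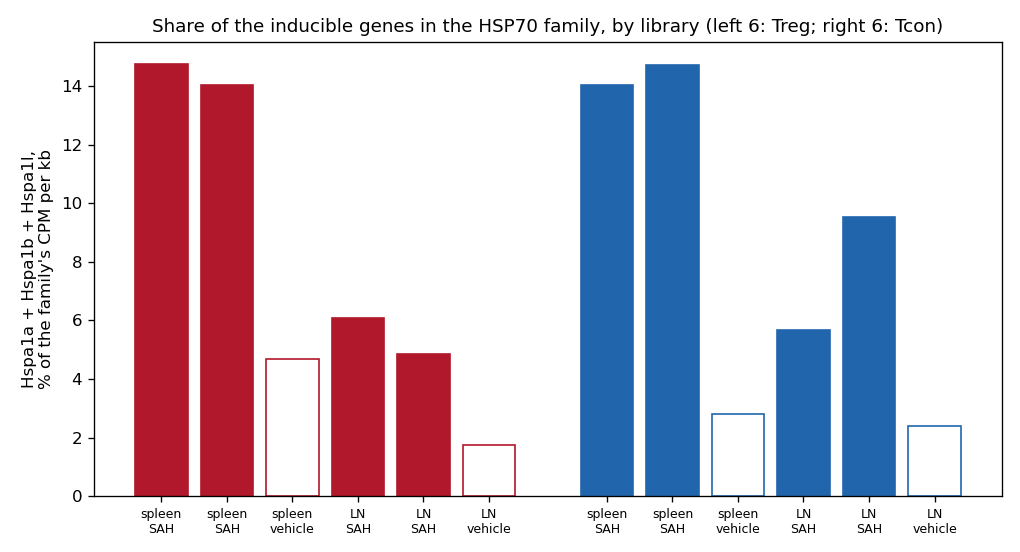
Summed CPM per kilobase of Hspa1a, Hspa1b and Hspa1l as a percentage of the sum over all 10 members (y axis, from 0), 1 bar per library, with Treg on the left and Tcon on the right, filled for SAH and open for vehicle. Spleen SAH bars reach 14.0% to 14.7% in both cell types, and the vehicle bars lie between 1.75% and 4.67%.

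The contrast behind the choice of members was SAH against vehicle, and the difference between organs was tested. Members were chosen from the same libraries with earlier results known, so these p-values may not be independent of that choice. The same limit holds for the comparisons of organs and of cell types in the change with SAH, given below. In Treg, 6 of 10 members were higher in spleen than in lymph node and none was lower, where 14.7% of all genes were called, 8.71% higher and 6.01% lower in spleen (limma with Benjamini-Hochberg adjustment over 10405 genes, treatment as a term, n = 3 libraries per organ). Hspa1a was 3.09-fold higher on the log2(CPM + 1) scale (95% CI 2.77 to 3.43, adjusted p = 2.98e-09), Hspa1b 3.12-fold (adjusted p = 7.12e-10) and Hspa1l 2.75-fold (adjusted p = 8.26e-08). Between the vehicle libraries alone, the ratio of spleen to lymph node was 2.89 for Hspa1a, 2.996 for Hspa1b and 3.42 for Hspa1l, and between the SAH means it was 3.25, 3.24 and 2.97.

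Outside the inducible genes, Treg of spleen also had more Hspa2 (1.34-fold, adjusted p = 0.00633), Hspa5 (1.21-fold, adjusted p = 0.00268) and Hspa13 (1.26-fold, adjusted p = 0.00348) by the same limma fit. For these 3 genes every spleen library lay above every lymph node library, as for 16.8% of all genes. The inducible genes did not show that order, because lymph node SAH libraries reached the spleen vehicle library. The remaining 4 members did not pass, with log2 differences of 0.10 for Hspa4, 0.07 for Hspa8, 0.02 for Hspa9 and -0.06 for Hspa14. All 6 calls held in each alternative that was run: the other pseudocount, both other filters, no trend, median centring and leaving out any 1 library. Hspa14 had the opposite order, every spleen library below every lymph node library, as did 15.1% of all genes.

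In Tcon, 3 of 10 members were higher in spleen, and none was lower, beside 4.73% of all genes called, 3.28% higher and 1.46% lower. Every spleen library lay above every lymph node library for Hspa5 alone, as for 10% of all genes, and below for no member, as for 9.33%. The 3 higher members were Hspa1a (1.98-fold, 95% CI 1.42 to 2.77, limma adjusted p = 0.0299), Hspa1b (1.92-fold, adjusted p = 0.0271) and Hspa5 (1.18-fold, adjusted p = 0.0237). Hspa1l had a log2 difference of 0.74 and did not pass (adjusted p = 0.0808). Between the vehicle libraries alone, the ratio of spleen to lymph node was 1.37 for Hspa1a, 1.33 for Hspa1b and 1.10 for Hspa1l, against 2.29, 2.23 and 2.08 between the SAH means. The Tcon calls rested on single libraries: no member was called without lymph node SAH replicate 3 or without spleen SAH replicate 6, and Hspa1b alone was called without spleen SAH replicate 5. Without lymph node vehicle replicate 1 or spleen vehicle replicate 4, Hspa5 was not called (adjusted p = 0.122 and 0.12) and Hspa1l was (log2 difference 1.05, adjusted p = 0.0183 and 0.0178). Without an intensity trend in the variance no member was called, with adjusted p = 0.0834 for Hspa1b, 0.0909 for Hspa1a and 0.0568 for Hspa5.

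**Figure D4:**
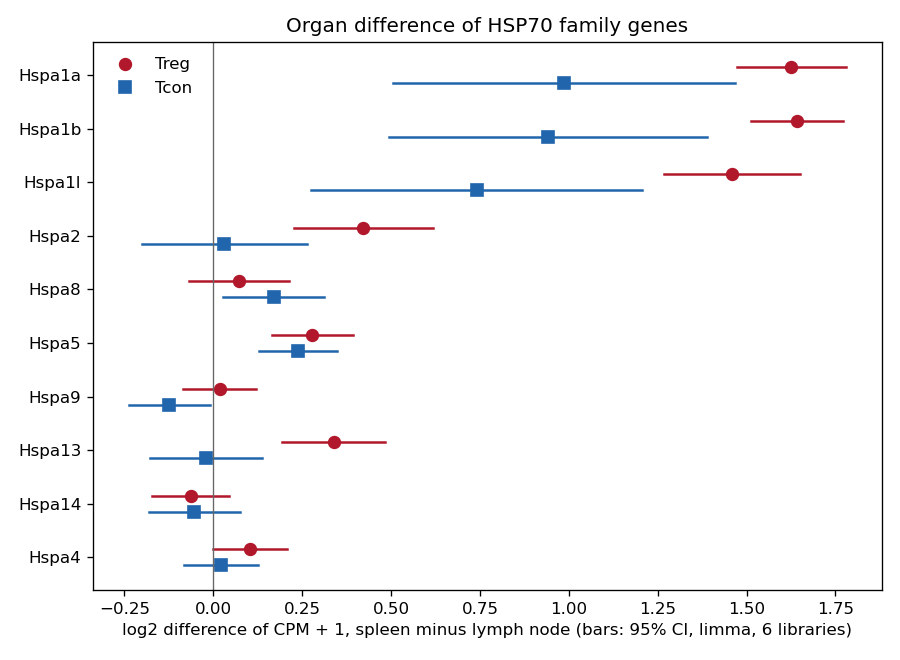
Fitted log2 difference of CPM + 1 between spleen and lymph node (x axis, spleen minus lymph node) for each member (y axis) with its 95% confidence interval, in Treg (red circles, upper) and Tcon (blue squares, lower), each from 6 libraries. Hspa1a lies at 1.63 in Treg and 0.99 in Tcon, Hspa5 at 0.28 and 0.24, Hspa9 at 0.02 and -0.12, and Hspa4 at 0.10 and 0.02.

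Spleen libraries also held more RNA of some markers of other cell types, though CD8 T and NK markers were lower in sum in Treg of spleen. The summed myeloid and dendritic markers (5 of 13 listed in Treg) reached 80.7 and 102 CPM with SAH and 65.1 CPM with vehicle in Treg of spleen, against 26.6 to 28.1 CPM in Treg of lymph node. In Tcon (3 of 13 listed) they were at 39.1 to 44.9 CPM in spleen and 18.5 to 20.7 CPM in lymph node. Plasma cell markers (3 of 5 listed) summed to 215 to 250 CPM in Treg of spleen and 107 to 128 CPM in Treg of lymph node, and to 155 to 231 CPM in Tcon of spleen and 106 to 136 CPM in Tcon of lymph node. Single markers differed more than these sums. Jchain of plasma cells was 65.3-fold higher in Treg of spleen and 40.7-fold higher in Tcon of spleen than in lymph node. Lyz2 of myeloid cells was 16.7-fold and 16.3-fold higher. Not every marker followed them. Of the myeloid markers, 5 of 5 were called higher in Treg of spleen, and Lyz2 alone of 3 in Tcon. Of 3 plasma cell markers, Jchain and Prdm1 were called higher in each cell type, and Xbp1 was not. Shares over all genes were 8.71% called higher in Treg of spleen and 3.28% in Tcon of spleen. Every listed gene reached 1.97 CPM or more in at least 3 libraries of its table, and each organ has 3. A marker almost absent from lymph node could thus be listed through spleen alone, and markers low in both organs are missing from these sums. B cell markers summed to 23.9 to 24.9 CPM in Treg of spleen and 16.1 to 17.2 CPM in Treg of lymph node (3 of 10 listed), and to at most 6.85 CPM in Tcon (2 of 10 listed). Of 6 erythroid markers, Alas2 alone was listed, in Treg, and reached 28.8 CPM in 1 spleen SAH library, with the other 5 Treg libraries at or below 4.18 CPM. Markers of CD8 T and NK cells did not move as 1 group in Treg, where Klrb1c was higher in spleen (2.02-fold, limma adjusted p = 0.000141) and Nkg7 lower (0.571-fold, adjusted p = 1.01e-05). Their sum in Treg was 28.1 to 29.9 CPM in spleen and 38.0 to 38.6 CPM with SAH or 37.0 CPM with vehicle in lymph node (4 of 8 listed), and were at 66.7 to 91.4 CPM in spleen and 36.0 to 40.5 CPM in lymph node in Tcon (5 of 8 listed). The part of these cells in the organ difference of the HSP70 genes was not tested.

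Whether the change with SAH differed between organs was tested as an interaction in each cell type. No member passed in either, where limma called 0.00961% of genes in Treg and 0% in Tcon, and 251 and 504 genes had an unadjusted p below 0.05. In Treg the difference of log2 changes, spleen minus lymph node, was 0.21 for Hspa1a (95% CI -0.11 to 0.52), 0.14 for Hspa1b and 0.05 for Hspa1l. In Tcon it was 0.81 for Hspa1a (95% CI -0.05 to 1.68, limma adjusted p = 0.913), 0.81 for Hspa1b (95% CI 0.025 to 1.58) and 0.94 for Hspa1l (95% CI 0.18 to 1.70), with equal adjusted p. Without lymph node SAH replicate 3, the higher of its pair, the log2 differences were 1.28, 1.22 and 1.31 for Hspa1a, Hspa1b and Hspa1l. Without lymph node SAH replicate 2 the difference for Hspa1a was 0.35. Each of these fits left 1 SAH and 1 vehicle library in lymph node, so only the size of the difference is given. Among the other paralogs the estimates ranged between -0.02 and 0.12 in Treg and between -0.13 and 0.44 in Tcon, with Hspa2 at the top in both.

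Whether SAH had a different effect in Treg than in Tcon was tested over all 12 libraries and the 9784 genes of both tables. This main fit took same-numbered Treg and Tcon libraries as independent, although their deviations were correlated. A fit with the library number as a replicate block is given below. In the main fit limma called no gene, so 0% of all genes and no member passed, and 453 genes had an unadjusted p below 0.05. The estimated difference of log2 changes, Treg minus Tcon, was -0.62 for Hspa1a (95% CI -1.24 to -0.01), -0.63 for Hspa1b and -0.31 for Hspa1l (95% CI -0.90 to 0.27). For Hspa2 it was -0.69 (95% CI -1.001 to -0.37, limma adjusted p = 0.327). Hspa8 had -0.25, and Hspa5 had -0.21 (adjusted p = 0.908), with all 4 SAH libraries under the vehicle of their organ in Treg and all 4 above it in Tcon. Those orders were found in 11.7% of all genes in Treg and 16.6% in Tcon. The estimates were -0.12 for Hspa9, -0.08 for Hspa14, -0.01 for Hspa4 and 0.12 for Hspa13. With the library number as a replicate block, 76 genes were called and Hspa2 was among them (difference -0.69, adjusted p = 0.0151). Without Tcon lymph node SAH replicate 2, the lower of its pair for both genes, the differences were -0.88 for Hspa1a and -0.86 for Hspa1b. That fit left 1 SAH library in Tcon of lymph node, so only the size of the differences is given.

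**Figure D5:**
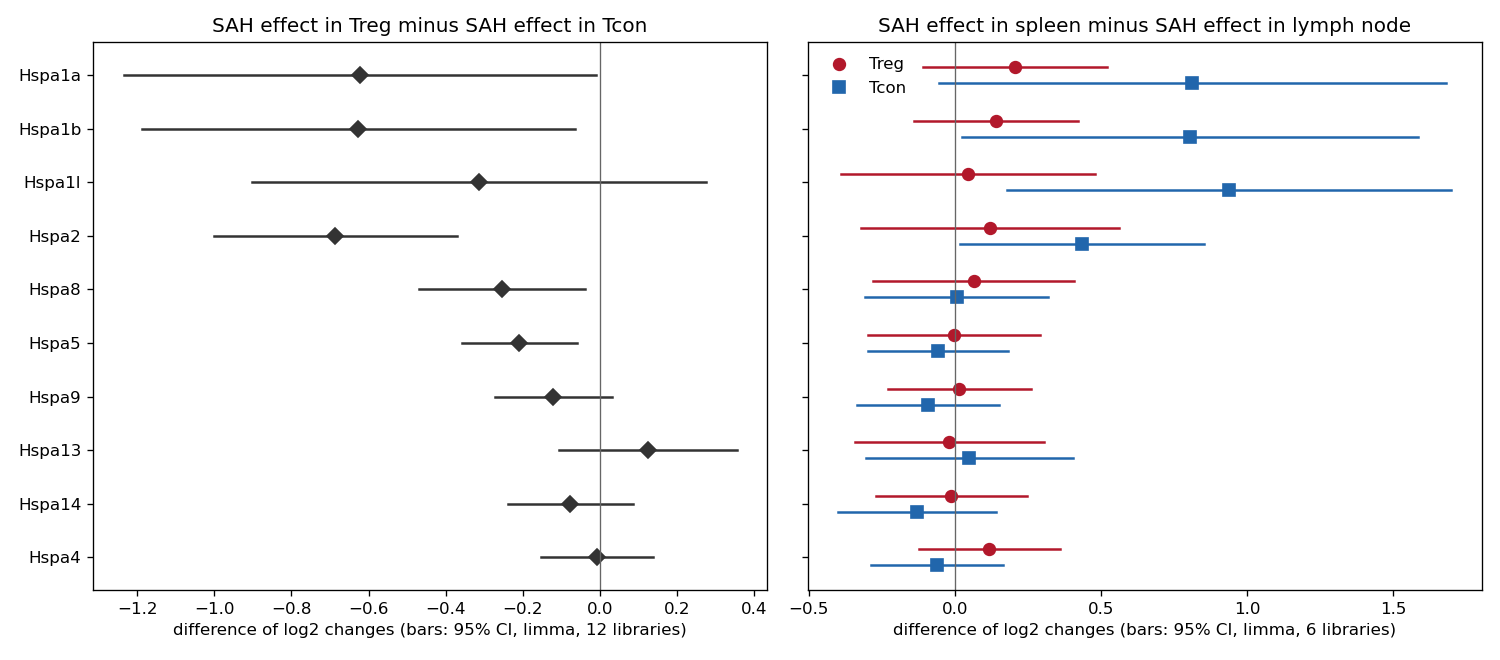
Left, the log2 change with SAH in Treg minus that in Tcon (x axis) for each member (y axis) with its 95% confidence interval over 12 libraries; right, the log2 change with SAH in spleen minus that in lymph node, in Treg (red circles) and Tcon (blue squares), over 6 libraries each. On the left Hspa2 lies at -0.69 and Hspa1a at -0.62, and on the right the inducible genes lie at 0.81 to 0.94 in Tcon and 0.05 to 0.21 in Treg. No member was past the adjusted threshold in these fits, which held no replicate block.

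Some chaperones and co-chaperones known as targets of HSF1, outside the HSP70 members, also rose with SAH. In all, 2 of 16 measured genes of that list rose in Treg and 6 of 16 rose in Tcon, and none fell. Of all genes, 0.135% were called higher with SAH in Treg and 0.88% in Tcon. This list and those that follow were chosen with earlier results of these data known, so their counts and p-values are not independent support. The median log2 change of the 16 genes was 0.15 in Treg and 0.24 in Tcon, against 0.00 over all genes in each. Hsph1, the HSP110 exchange factor of cytosolic HSP70, rose 1.46-fold in Treg (limma adjusted p = 0.00949) and 1.64-fold in Tcon (adjusted p = 0.0107). Dnajb1, the J-domain partner of inducible HSP70, rose 1.31-fold in Treg (adjusted p = 0.0410) and 1.52-fold in Tcon (adjusted p = 0.00496). In Tcon, Hsp90aa1, the inducible cytosolic HSP90, rose 1.27-fold (limma adjusted p = 0.0181). Its constitutive paralog Hsp90ab1 also rose 1.27-fold (limma adjusted p = 0.0250), and Dnaja1 and Dnajb4 passed as well. Without the intensity trend none of the 16 passed in either cell type, with adjusted p of 0.249 in Treg and 0.0804 in Tcon for Hsph1 and of 0.374 in Treg and 0.0574 in Tcon for Dnajb1. None passed without spleen vehicle replicate 4 in either cell type or without lymph node SAH replicate 3 in Tcon, 1 passed (Hsph1) with median centring or without lymph node SAH replicate 2 or 3 in Treg, and 2 passed without lymph node vehicle replicate 1 or spleen SAH replicate 6 in Tcon. Heat shock factors themselves did not pass in either cell type (0 of 4 measured in Treg, 0 of 3 in Tcon), with Hsf1 at 68.4 to 76.6 CPM in Treg and 65.0 to 69.5 CPM in Tcon.

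In the machinery that drives the HSP70 cycle, few other genes passed. Of 12 nucleotide exchange factors measured, Hsph1 alone passed in each cell type. Of 37 J-domain proteins, Dnajb1 passed in Treg, and Dnajb1, Dnaja1 and Dnajb4 passed in Tcon. None of the 6 measured genes of substrate hand-over and degradation passed in either cell type, and none of the 3 partners of Hspa14 at the ribosome. Of 4 further relatives measured (Hspa4l, Hspa12a, Hsph1 and Hyou1), Hsph1 was again the one that passed.

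For the organelle members, few partners passed after SAH. Of 23 partners and stress genes of the endoplasmic reticulum measured with Hspa5, none passed in Treg after SAH. In Tcon, 2 rose, Atf4 (1.26-fold, limma adjusted p = 0.0231) and Ddit3 (1.33-fold, adjusted p = 0.0188), which are transcription factors of the integrated stress response rather than chaperones, and neither passed without the intensity trend or without replicate 1, 3, 4 or 6, and Ddit3 alone passed without replicate 5. Between organs, 9 of the 23 were higher in Treg of spleen, with Eif2ak3, the PERK kinase, at 1.21-fold (adjusted p = 0.00188) and the BiP co-chaperone Dnajb9 at 1.20-fold (adjusted p = 0.00281), and 1 of 23 (Atf6) in Tcon of spleen. Of all genes, 8.71% were called higher in Treg of spleen and 3.28% in Tcon of spleen. The 9 were 4 without the trend, 1 without vehicle replicate 1 or 4, and 3 and 5 without lymph node SAH replicates 2 and 3, while Atf6 lost its call without vehicle replicate 1 or 4. Of 18 mitochondrial partners of Hspa9, none passed after SAH in either cell type, and Dnajc15 alone passed between organs, in Treg (1.21-fold, adjusted p = 0.0483, and between 0.0455 and 0.236 over 11 alternatives, 4 of which kept the call).

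Immediate-early genes, which respond to cell handling as well as to activation, were followed beside the inducible genes. After SAH, none of 25 measured passed in Treg, where their median log2 change was 0.09. In Tcon, beside 0.88% of all genes called higher, 7 of 24 rose and none fell, with a median of 0.39. They included Fosl2 (1.64-fold, limma adjusted p = 0.000789), Nr4a2 (1.47-fold, adjusted p = 0.00344) and Nr4a3 (1.58-fold, adjusted p = 0.00496). Fosl2 and Nr4a2 passed under each of 11 alternatives, but 2 of 24 genes passed without the intensity trend or without lymph node SAH replicate 3, 3 without spleen vehicle replicate 4, 4 without spleen SAH replicate 6 and 11 without lymph node SAH replicate 2. In Treg, 2 rose without replicate 4 or 5 and 4 rose without replicate 6. Between organs, 16 of 25 were higher and 1 lower in Treg of spleen, where 8.71% of all genes were higher and 6.01% lower. In Tcon of spleen, 5 of 24 were higher, beside 3.28% of all genes. The part of handling or activation in the values of the HSP70 genes was not tested.

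The genes whose values across libraries were most like those of each leading member were taken by the smaller of 2 Pearson correlations of log2(CPM + 1), over 6 Treg libraries and over 6 Tcon libraries, among 9784 genes. They are a description over libraries that share organ and treatment. For Hspa1a they were Hsp90aa1 (r = 0.952 in Treg and 0.972 in Tcon), Hsph1 (0.942 and 0.974), Socs3 (0.938 and 0.968), Dnajb1 (0.935 and 0.988) and Alkbh5 (0.932 and 0.929). For Hspa8 they were Dirc2 (0.938 and 0.995), Rcsd1, P4ha1, Safb and Dcaf12. For Hspa5 they were Adipor1 (0.964 and 0.997), Gpr183, Pim1, Mapre2 and Selenok. Within the family, Hspa1a correlated with Hspa8 at 0.684 in Treg and 0.959 in Tcon, and with Hspa13 at 0.762 in Treg and -0.14 in Tcon. Hspa5 followed Hspa2 at 0.972 in Treg, where both were higher in spleen, and at 0.526 in Tcon.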

How the data were processed

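RNA was measured by sequencing in 6 Treg and 6 Tcon libraries. Per the submitters' processing notes, reads were handled with TopHat, Bowtie and edgeR on mm10; for versions, annotation and strand setting the sources used here give nothing. For each cell type there is 1 deposited table with a normalised signal, which the file headers call CPM. Column totals ran between 971928 and 1021433, so each library carries a further scaling by the authors. Deposited log2 values, p-values and scores (a likelihood ratio statistic and a call) are the authors' own, per the file headers, and are used only where named. All values (100%) lay within 0.1 of a whole number of reads, which gave the depths.

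Values were analysed as log2(CPM + 1) with limma 3.58.1 in R 4.3.3 (moderated variances with an intensity trend, two-sided tests, Benjamini-Hochberg over all genes of the fit, calls at adjusted p below 0.05). A minimum of 1 CPM in 2 libraries removed 0 genes, since every gene in the deposited data already reached 1.97 CPM or more in at least 3 libraries. Folds are on that scale, which understates changes of low genes, except those of SAH means over vehicle and of spleen over lymph node within a treatment, which are of CPM. Models held organ and treatment within a cell type, their interaction, or the term for cell type and treatment over 12 libraries. The procedure was tested on simulated data. Some symbols (284 in Treg, 272 in Tcon) share all values with another symbol and were kept. Members and gene lists were chosen with earlier results of these data known. All members are named. From each list, genes called after SAH are named, at most 3 by smallest adjusted p, and the few called where a count was 5 or fewer. Hsp90ab1 is named as the paralog of Hsp90aa1. The genes named for organ differences outside the members, and the lower values singled out, were chosen after their values were seen.

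Library numbers are shared by 1 Treg and 1 Tcon library. Deviations of same-numbered SAH libraries from their group means correlated at r = 0.438 in lymph node and 0.556 in spleen (across 9784 genes). With 2 SAH libraries per group, the opposite pairing must give the same r with a negative sign, so only the sign is informative. On this weak ground the numbers were taken to pair the samples. The main fit over 12 libraries did not use this pairing, and the replicate block did. Coordinates and lengths come from GENCODE (mm10), and promoter sequences from RefSeq (GRCm38.p6), in which 7 of 10 members matched. Alternatives were another pseudocount, filters, no trend, median centring, leaving out each library, the block, and other transcript lengths.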

Additional observations from a re-analysis of the deposited data

Results flagged for a closer look

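Hspa5 drew attention because its SAH libraries lay on opposite sides of vehicle in the 2 cell types. All 4 Treg SAH libraries were under the vehicle library of their organ, as for 11.7% of all genes in Treg. All 4 Tcon SAH libraries were above it, as for 16.6% of all genes and for 8 of 10 members in Tcon. Each side rests on 1 vehicle library per organ. The difference of log2 changes, Treg minus Tcon, was -0.21 and did not pass in the limma fit over 12 libraries (adjusted p = 0.908). It kept its sign when each library was left out in turn, between -0.24 and -0.18.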

How the results depend on the processing

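Under the other pseudocount (0.25), the filter of 5 CPM, no filter and median centring, no count of genes called moved by over 1.5 times except the interaction in Treg, which called 2 genes with the pseudocount of 0.25, 2 with the filter of 5 CPM and 2 with median centring, against 1. Without the trend, genes called numbered 7 for SAH in Treg (21 with it), 11 for SAH in Tcon (103), 0 for the interaction in Treg and 1 for Treg minus Tcon (0). There the members called were 2 for SAH in Tcon (5) and 0 for the organ difference in Tcon (3). The replicate block called 76 genes for Treg minus Tcon and 1 member, Hspa2, and changed no other call of a member.

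Leaving out each library in turn gave these ranges of genes called: 7 to 95 for SAH in Treg, 11 to 226 for SAH in Tcon, 768 to 1830 for the organ difference in Treg, 215 to 628 in Tcon, 0 to 94 for the interaction in Treg, 0 to 15 in Tcon and 0 to 7 for Treg minus Tcon. Members called ranged between 2 and 5 for SAH in Tcon and between 0 and 3 for the organ difference in Tcon. For the interactions and for Treg minus Tcon, only the sizes of the members' differences are given.

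Called directions of members did not turn under any alternative. Those that did turn were not called. In the interaction in Treg, Hspa1l was -0.12 with the pseudocount of 0.25, and Hspa13, Hspa5 and Hspa14 were 0.0053, 0.021 and 0.012 with median centring. Leaving out 1 library, the organ difference ranged between -0.015 and 0.047 for Hspa9 in Treg, and in Tcon between -0.039 and 0.18 for Hspa2, -9.29e-05 and 0.038 for Hspa4 and -0.081 and 0.031 for Hspa13. The interaction in Treg ranged between -0.065 and 0.16 for Hspa1l, -0.0096 and 0.14 for Hspa8, -0.13 and 0.094 for Hspa13, -0.019 and 0.013 for Hspa5, -0.039 and 0.070 for Hspa9 and -0.042 and 0.019 for Hspa14, and in Tcon between -0.093 and 0.10 for Hspa8 and -0.048 and 0.15 for Hspa13. Treg minus Tcon ranged between -0.78 and 0.16 for Hspa1l and -0.067 and 0.052 for Hspa4. The interaction could not be estimated without a vehicle library.

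The median share of inducible genes over the 12 libraries was 5.88%, 7.49% with the length of all exons joined, and 5.08% with the longest protein-coding transcript, a choice made after the data were seen that shortens Hspa8. The causes of these shifts were not tested. Each within-cell-type model had 1 vehicle library per organ and 2 or 3 residual degrees of freedom, and no effect of read depth on the calls was tested.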
